A study of Mus musculus with 6 samples.

Results

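The 9 genes described here make proline, serine, one-carbon units and asparagine from glucose and glutamine intermediates, or switch that synthesis on. They are Pycr1 and Aldh18a1 of proline synthesis, Phgdh, Psat1 and Psph of serine synthesis, Shmt2 and Mthfd2 of the mitochondrial one-carbon pathway, Asns, which makes asparagine, and Atf4, a transcription factor. They were picked by symbol from the 15803 genes of the table, and all 9 were found. The set was chosen by the strong fall of Pycr1 in these libraries, to which the rest of its pathway and enzymes regulated by Atf4 were added, so the CKO against WT values of the 9 genes are given as a description, without p-values of their own.

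Growth plate cartilage of mouse embryos at E18.5 was measured by RNA-seq in 6 libraries. The 3 WT libraries came from Hnrnpk fl/fl embryos, and the 3 CKO libraries from Col2a1-Cre;Hnrnpk fl/fl embryos. Both groups thus carried the floxed Hnrnpk alleles, and only the CKO embryos carried the Cre recombinase, which is driven by the Col2a1 promoter and deletes Hnrnpk, an RNA-binding protein gene, in chondrocytes, while cells that never use this promoter keep the gene. Embryos of both sexes were used, and the labels do not say whether each library came from a separate embryo, so the errors below measure the spread between libraries, which may be technical.

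Cartilage is built from secreted collagens that are unusually rich in proline and glycine, so chondrocytes have a high demand for these amino acids. Proline is made from glutamate in the mitochondria, in a first step by the Aldh18a1 enzyme and a last step by pyrroline carboxylate reductases, of which Pycr1 is a mitochondrial one. Serine is made from a glycolytic intermediate by Phgdh, Psat1 and Psph in turn, and Shmt2 and Mthfd2 use it to give glycine and folate-bound one-carbon units. When amino acids are scarce or proteins misfold, kinases phosphorylate eIF2, general translation slows, and the Atf4 mRNA is translated more. Atf4 protein then binds composite C/EBP-ATF response elements (CARE) in the promoters of amino acid enzymes, transporters and tRNA synthetases. The level of Atf4 protein is therefore not read from its mRNA.

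Values are CPM, which scales the reads of a gene to 1000000 reads on all listed genes of a library, and the 3 values of a group follow the replicate numbers. The libraries held between 1153871 and 1454094 reads, so that 1 read was worth 0.688 to 0.867 CPM. Fold changes are differences of the mean log2(CPM + 1), CKO minus WT (n = 3 each), with the standard error (SE) and 95% interval of limma. A gene was counted as called when its Benjamini-Hochberg adjusted p over 12155 genes was under 0.05. Hnrnpk itself stood at 842, 955 and 944 CPM in the WT libraries, against 759, 949.86 and 780.0 CPM in the CKO libraries, and these ranges overlapped (log2 fold change -0.14, SE 0.15, limma's adjusted p = 0.622). Cre removes only some exons of the floxed alleles, and a CPM per gene can still count reads on the others. The Hnrnpk level therefore does not check the genotypes, and every direction below rests on the labels. WT 3 and CKO 2 stood apart from the other libraries of their groups. The mean chi-square per gene was 2.06 between WT 1 and WT 2 but 8.65 to 9.43 between either and WT 3, and 1.29 between CKO 1 and CKO 3 but 13.1 to 14.2 between either and CKO 2. Values without them are given where they change a call or move a value of the 9 genes by over 1.5 times. Leaving out both keeps only pairs of close libraries, so calls made without both rest on a spread that may be technical. Without both, 2410 genes were called, against 703 with all 6 libraries.

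The tissue matched its label, since all 7 chondrocyte markers were detected, and their sum lay between 14059 and 19105 CPM in WT and between 3768 and 4877 CPM in CKO, with 5 of the 7 called lower. WT 3 held the highest of these sums. The skeletal muscle list summed to 88.4, 56.3 and 232 CPM in the WT libraries, again highest in WT 3, and to 85.9 to 118 CPM in CKO. Osteoblast markers summed to 457 to 691 CPM in WT and to 1276, 367 and 1370 CPM in CKO (CKO 2 below every WT library, CKO 1 and CKO 3 above). The sums in WT and CKO were 108 to 121 and 182 to 199 CPM for macrophages and osteoclasts. For skin epithelium they were 26.2 to 53.6 and 133 to 201 CPM. Endothelial and erythroid sums stayed at or below 3.8 CPM in every library. Of the macrophage markers only Cd68 was called higher, from a mean of 9.09 CPM in WT to 66.5 CPM in CKO. Ptprc was at 0 in 5 libraries and at 0.72 CPM in CKO 2. Of the epithelial markers only Perp was called higher, from a mean of 13.4 CPM in WT to 115 CPM in CKO, and Krt5 and Krt14 are not among the genes listed. Cd68 and Perp carried most of the rise of their sums. The 12 cell cycle genes summed to 619 to 668 CPM in WT, to 540 and 567 CPM in CKO 1 and CKO 3 and to 1248 CPM in CKO 2, and 0 of the 12 were called. Their log2 fold changes were positive in 8 of 12 genes (median 0.16), but without WT 3 and CKO 2 they were negative in 11 of 12 (median -0.26). Then 2 of the 12 were called lower, as were 9.22% of all genes tested. The part of these shifts in the results below was not tested. In bulk tissue, fewer cells of a type and less RNA per cell cannot be told apart.

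Of the 9 genes, 3 were called lower in CKO (Pycr1, Aldh18a1 and Mthfd2), 0 were called higher and 6 were not called. Over all genes tested, 2.6% were called lower and 3.18% higher. In 5 of the 9 genes every CKO library lay below every WT library (Pycr1, Aldh18a1, Phgdh, Mthfd2 and Asns), a pattern held by 13.2% of all genes tested. The study's own criterion for a lower gene was a log2 fold change below -1 with p under 0.05. Applied here to limma's log2 fold change and unadjusted p, it counted Pycr1 as the 1 gene of the 9, where 5.1% of all genes tested were counted. Pycr1, whose fall chose the set, is counted as called lower, without overlap and past this criterion. Its part in these counts was fixed in advance. Negative log2 fold changes were found in 8 of the 9 genes, with a median of -0.24 beside 0.01 over all genes tested. The 9 genes together summed to 2633, 2734 and 2936 CPM in the WT libraries and to 2006, 2254 and 2003 CPM in the CKO libraries. Without WT 3 and CKO 2, a comparison of 2 libraries with 2 was added after the data were seen. In it, 6 of the 9 were called lower (Pycr1, Aldh18a1, Phgdh, Shmt2, Mthfd2 and Atf4) and Psat1 higher, where 9.22% of 11911 genes were called lower and 11% higher. These calls rest on the small spread of the close pairs that were left.

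**Figure D1:**
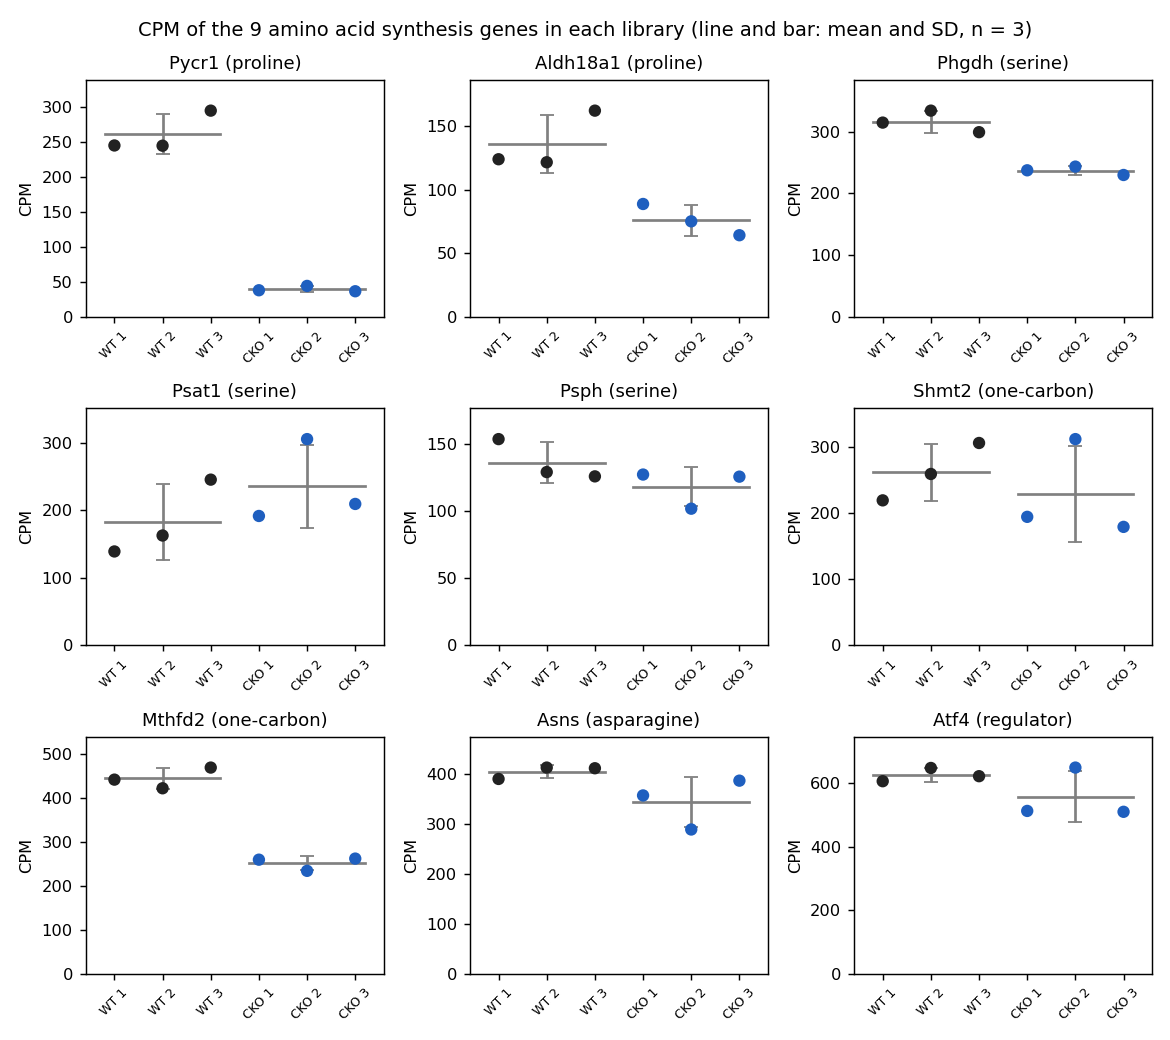
CPM of each of the 9 genes (vertical axes, from 0) in the 3 WT libraries (black) and the 3 CKO libraries (blue), with a grey line and bar for the mean and SD (n = 3). Pycr1 shows the widest gap, from a WT mean of 261 CPM to a CKO mean of 39.4 CPM. The points of Psat1, Psph, Shmt2 and Atf4 overlap between the groups. CKO 2 is the highest CKO point for Psat1, Shmt2 and Atf4, and by less for Pycr1 and Phgdh.

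Pycr1 (ENSMUSG00000025140), which makes proline from pyrroline carboxylate in the last step of the pathway, lies on the minus strand of GRCm38 chromosome 11, from 120635712 to 120643769. The 129 bases just before its annotated transcript are shown because they hold a CARE core (TGATGNAA, in capitals), which starts 103 bases before the RefSeq start. They are read 5′ to 3′ on the minus strand from the RefSeq promoter table of GRCm38.p6, at chr11:120643770-120643898.
Pycr1 promoter: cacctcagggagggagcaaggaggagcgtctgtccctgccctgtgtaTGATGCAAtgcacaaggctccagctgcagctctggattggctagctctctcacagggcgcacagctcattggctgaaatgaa

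Pycr1 stood at 244.99, 244.65 and 295 CPM in the WT libraries, against 37.8, 44.0 and 36.4 CPM in the CKO libraries. All 3 CKO libraries were close to each other and far below the lowest WT library. The means were 261 ± 28.9 CPM in WT and 39.4 ± 4.06 CPM in CKO (SD, n = 3), a 6.63-fold difference that rested on 1013 and 158 reads. On the log2 scale the difference was -2.70 (SE 0.17, 95% interval -3.08 to -2.31), and it stayed between -2.78 and -2.61 in all 13 alternative analyses, each of which called Pycr1 lower. Since this fall chose the set, these calls show how it depends on the processing and are no test of it.

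Aldh18a1 (ENSMUSG00000025007; minus strand of chromosome 19, 40550257 to 40588463), the bifunctional enzyme that opens the pathway from glutamate, stood at 124, 122 and 162 CPM in the WT libraries, against 88.7, 75.1 and 64.1 CPM in the CKO libraries. The groups did not overlap, and the gap between the lowest WT and the highest CKO library was narrower than for Pycr1. Its log2 fold change was -0.83 (SE 0.20, 95% interval -1.27 to -0.40). This call was less firm, since 7 of 13 alternatives kept it and leaving out any single library other than CKO 2 lost it, with the log2 fold change between -0.95 and -0.70. Within a library, Pycr1 had 1.98, 2.01 and 1.82 times the CPM of Aldh18a1 in the WT libraries and 0.43, 0.59 and 0.57 times in the CKO libraries.

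Pycrl (Pycr3) encodes another pyrroline carboxylate reductase. Per kb of exon it stood at 41.1, 33.6 and 49.2 CPM in the WT libraries, against 40.6, 43.1 and 38.8 CPM in the CKO libraries, where Pycr1 stood at 62.3, 62.2 and 74.9 CPM per kb and at 9.61, 11.2 and 9.25 CPM per kb. Pycrl thus lay below Pycr1 in every WT library and above it in every CKO library. Its groups overlapped, with a log2 fold change of -0.00 (-0.001, SE 0.20, limma's adjusted p = 0.999).

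The other proline and glutamate enzymes were a list of 13 tested genes, of which Got2 was called higher and Gpt2 lower. The shares over all genes tested were 3.18% higher and 2.6% lower. Got2, the mitochondrial aspartate aminotransferase, stood at 57.3, 77.3 and 76.0 CPM in the WT libraries, against 112, 131 and 126 CPM in the CKO libraries (log2 fold change 0.81, SE 0.19, limma's adjusted p = 0.033). Gpt2, the mitochondrial alanine aminotransferase, stood at 23.9, 24.8 and 55.8 CPM in the WT libraries, against 9.63, 10.1 and 3.47 CPM in the CKO libraries (log2 fold change -2.04, SE 0.44, limma's adjusted p = 0.026). Both separated the groups, and both calls were lost without WT 1, WT 2, CKO 1 or CKO 3, and that of Gpt2 also without WT 3. Over the list the log2 fold change was negative in 7 of 13 genes, with a median of -0.00 (-0.001). Without WT 3 and CKO 2, 2 of 12 genes were called higher and 2 lower, where 11% of all genes tested were called higher and 9.22% lower.

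Phgdh (ENSMUSG00000053398; minus strand of chromosome 3, 98313170 to 98339990), the first enzyme of serine synthesis, stood at 315, 334 and 299 CPM in the WT libraries, against 237, 243 and 229.66 CPM in the CKO libraries. The groups did not overlap, and the spread within each was small. This gave a log2 fold change of -0.41 (SE 0.14, 95% interval -0.73 to -0.10), which was not called, with means of 316 ± 17.5 and 237 ± 6.80 CPM (SD, n = 3). The annotation holds 19 near-identical copies of Phgdh, at 90% identity over at least 300 bp, and 0 of these are among the genes listed.

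Psat1 (ENSMUSG00000024640; minus strand of chromosome 19, 15904678 to 15947337), the aminotransferase of the next step, stood at 139, 163 and 246 CPM in the WT libraries, against 192, 306 and 209.73 CPM in the CKO libraries. It was the 1 gene of the 9 with a positive log2 fold change (0.38, SE 0.24, 95% interval -0.16 to 0.92), and its groups overlapped because WT 3 lay above CKO 1 and CKO 3. Without WT 1 it was 0.21, without CKO 2 0.18, without WT 3 0.61 and without both WT 3 and CKO 2 0.41, and only the last was called. The ratio of Psat1 to Phgdh was 0.44, 0.49 and 0.82 in the WT libraries and 0.81, 1.26 and 0.91 in the CKO libraries, so that CKO 1 lay just below WT 3.

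Psph (ENSMUSG00000029446; minus strand of chromosome 5, 129765558 to 129787449), the phosphatase that releases serine, stood at 154, 129 and 126 CPM in the WT libraries, against 127, 102 and 126 CPM in the CKO libraries. Its groups overlapped, with a log2 fold change of -0.20 (SE 0.17, 95% interval -0.59 to 0.18) that became -0.10 without CKO 2 and -0.12 without WT 1. Its exons share 452 bp with Cct6a on the opposite strand, a gene that is not among those listed. The 3 steps of the serine pathway thus had 1 gene without overlap below WT, 1 gene with a positive and 1 with a negative difference inside the spread of the libraries.

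Mthfd2 (ENSMUSG00000005667; minus strand of chromosome 6, 83305691 to 83325908), the mitochondrial folate dehydrogenase that is high in embryonic and dividing cells, stood at 441, 422 and 469 CPM in the WT libraries, against 259, 234 and 262 CPM in the CKO libraries. The groups were far apart for their spread, with means of 444 ± 23.7 and 252 ± 15.4 CPM (SD, n = 3). Mthfd2 had a log2 fold change of -0.82 (SE 0.14, 95% interval -1.13 to -0.50). It was called in 11 of 13 alternatives and lost its call without WT 1 or WT 2, with the log2 fold change between -0.86 and -0.73.

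Shmt2 (ENSMUSG00000025403; minus strand of chromosome 10, 127517123 to 127522444), which splits serine into glycine and a one-carbon unit in mitochondria, stood at 219.62, 259.65 and 307 CPM in the WT libraries, against 195, 313 and 179 CPM in the CKO libraries. CKO 2 was above every WT library, and CKO 1 and CKO 3 were below every one. The log2 fold change was -0.23 (SE 0.22, 95% interval -0.72 to 0.27) and moved with single libraries, to -0.47 without CKO 2, -0.35 without WT 1, -0.13 without CKO 1, -0.11 without WT 3 and -0.07 without CKO 3, none of which was called. Without both WT 3 and CKO 2 it was -0.35 and called. Shmt2 shares 32 bp of exon with Ndufa4l2 on the opposite strand, at 162 to 442 CPM in WT and 334 to 497 CPM in CKO (log2 fold change 0.30, limma's adjusted p = 0.661), and whether the reads were counted by strand is not given in the sources used here. The ratio of Mthfd2 to Shmt2 was 2.01, 1.62 and 1.53 in the WT libraries and 1.33, 0.75 and 1.46 in the CKO libraries.

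Of the counterparts of these enzymes, none was called in the 6 libraries, and Mthfd1l was called lower without CKO 2. Shmt1, the cytosolic form of Shmt2, was far lower per kb (2.51 to 3.17 CPM per kb in WT, where Shmt2 had 70.6 to 98.6) and had a log2 fold change of 0.52 (SE 0.32, limma's adjusted p = 0.388), which became 0.27 without CKO 2 (limma's adjusted p = 0.645). Mthfd1, the cytosolic trifunctional enzyme, had a log2 fold change of 0.37 (SE 0.23, limma's adjusted p = 0.390). Mthfd1l, the mitochondrial formate-releasing enzyme, stood at 73.2, 73.5 and 76.9 CPM in the WT libraries, against 29.6, 67.8 and 32.1 CPM in the CKO libraries. The groups did not overlap, with CKO 1 and CKO 3 well below WT and CKO 2 close to it, and the gene was not called (log2 fold change -0.88, SE 0.29, limma's adjusted p = 0.114). Without CKO 2 its log2 fold change was -1.25 and it was called (limma's adjusted p = 0.0023). Mthfd2l, the mitochondrial paralog of Mthfd2, was near the limit of detection, at 0.69 to 2.17 CPM in all 6 libraries.

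Of the 23 tested genes of the list of other serine, glycine, folate and methionine cycle enzymes, Cth was called lower, 0 were called higher and 22 were not called. With all 6 libraries, 2.6% of all genes tested were called lower and 3.18% higher. Cth, which makes cysteine from cystathionine, stood at 97.1, 92.3 and 101 CPM in the WT libraries, against 28.9, 49.1 and 34.7 CPM in the CKO libraries. The groups did not overlap, the log2 fold change was -1.38 (SE 0.22, limma's adjusted p = 0.00718), and all 13 alternatives called it. In 13 of the 23 genes the log2 fold change was negative, with a median of -0.03. Without WT 3 and CKO 2, 7 of 22 genes of this list were called lower and 1 higher, where 9.22% of all genes tested were called lower and 11% higher.

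Asns (ENSMUSG00000029752; minus strand of chromosome 6, 7675169 to 7693254), which makes asparagine from aspartate and glutamine, stood at 389.95, 413 and 411 CPM in the WT libraries, against 357, 289 and 387 CPM in the CKO libraries. The groups did not overlap, but CKO 3 lay just below WT 1. Asns had a log2 fold change of -0.24 (SE 0.16, 95% interval -0.59 to 0.10). It became -0.12 without CKO 2, the lowest library, and was called in 0 of 13 alternatives.

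Among the 10 tested genes of the list of other asparagine and aspartate enzymes and carriers, Ass1 was called higher and Asrgl1 lower. The shares over all genes tested were 3.18% higher and 2.6% lower. Ass1, which joins aspartate to citrulline for arginine synthesis, stood at 8.70, 8.25 and 2.53 CPM in the WT libraries, against 30.3, 28.9 and 41.6 CPM in the CKO libraries (log2 fold change 2.32, SE 0.41, limma's adjusted p = 0.011). Its WT value rested on few reads, with WT 3 at the floor of 3 reads. Asrgl1, an enzyme that cleaves asparagine, stood at 95.7, 84.1 and 71.8 CPM in the WT libraries, against 46.8, 28.9 and 44.2 CPM in the CKO libraries (log2 fold change -1.07, SE 0.23, limma's adjusted p = 0.026). Both genes separated the groups, and Asrgl1 lost its call without WT 1, WT 2, CKO 1 or CKO 3, and Ass1 without CKO 3 (limma's adjusted p = 0.061). The median log2 fold change of the list was 0.49, with 8 of 10 genes positive.

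**Figure D2:**
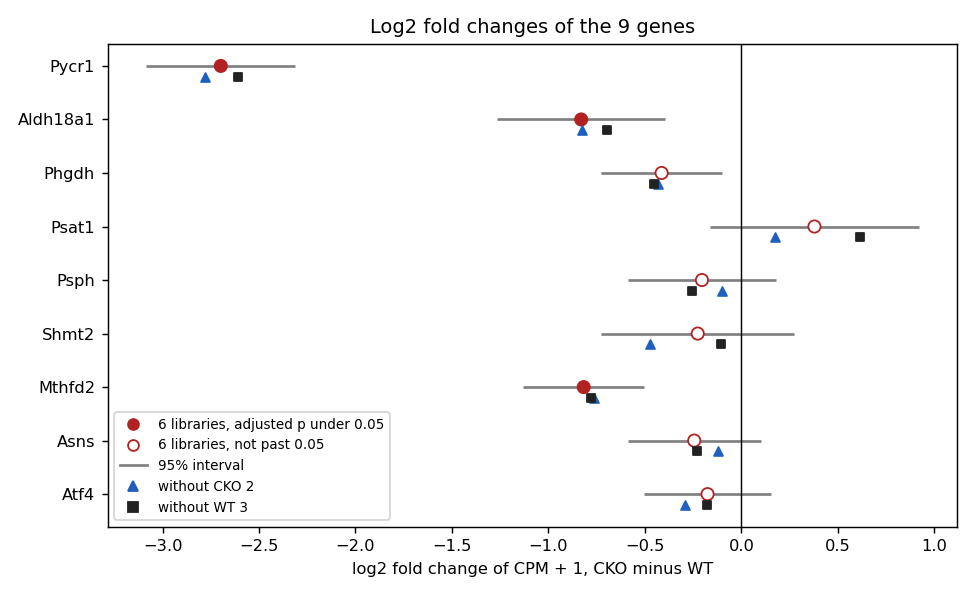
Log2 fold change of CPM + 1 (CKO minus WT, horizontal axis) of the 9 genes, with circles for the 6 libraries (filled where the adjusted p was under 0.05), grey lines for the 95% interval, blue triangles for the value without CKO 2 and black squares for the value without WT 3. Pycr1 at -2.70 lies apart from the other 8 genes, which lie between -0.83 and 0.38, and Psat1, at 0.38, is the 1 circle to the right of 0.

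Atf4 (ENSMUSG00000042406; plus strand of chromosome 15, 80255184 to 80257541) stood at 606, 648 and 622 CPM in the WT libraries, against 512, 649 and 509.59 CPM in the CKO libraries. CKO 2 was as high as WT 2, and CKO 1 and CKO 3 were below all WT libraries. The log2 fold change was -0.18 (SE 0.15, 95% interval -0.51 to 0.16) and became -0.29 without CKO 2, -0.12 without CKO 1 and -0.12 without CKO 3, with no call in any of these. Without both WT 3 and CKO 2 it was -0.29 and called lower.

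Of the list of 38 tested other textbook targets of Atf4, 7 were called lower (Eprs, Trib3, Fgf21, Chac1, Nupr1, Slc7a3 and Atf5), Gdf15 was called higher and 30 were not called, where 2.6% of all genes tested were called lower and 3.18% higher. This list, like the others, was chosen with earlier results of these data known, so its counts are a description. In 29 of the 38 the log2 fold change was negative, with a median of -0.26. Without WT 3 and CKO 2, 19 of the 38 were called lower and 2 higher, with a median of -0.51, where 9.22% of all genes tested were called lower and 11% higher.

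Trib3, a pseudokinase that restrains Atf4, stood at 351, 352 and 203 CPM in the WT libraries, against 90.1, 97.4 and 101 CPM in the CKO libraries (log2 fold change -1.60, SE 0.22, limma's adjusted p = 0.00373). Fgf21, a secreted stress hormone, stood at 57.3, 66.8 and 30.4 CPM in the WT libraries, against 11.0, 11.6 and 7.80 CPM in the CKO libraries (log2 fold change -2.18, SE 0.33, limma's adjusted p = 0.00505). In both genes WT 3 was the lowest WT library and still lay above all CKO libraries. Eprs, which charges the tRNAs of glutamate and proline, stood at 369.65, 399 and 378 CPM in the WT libraries, against 179, 181 and 173 CPM in the CKO libraries (log2 fold change -1.10, SE 0.14, limma's adjusted p = 0.00269). All 13 alternatives called these 3 genes lower.

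Chac1, which degrades glutathione, stood at 122, 123 and 105 CPM in the WT libraries, against 54.3, 59.9 and 65.0 CPM in the CKO libraries (log2 fold change -0.95, SE 0.17, limma's adjusted p = 0.013). Nupr1, a small stress-induced nuclear protein gene, stood at 752, 834 and 1066 CPM in the WT libraries, against 481, 287 and 492 CPM in the CKO libraries (log2 fold change -1.10, SE 0.23, limma's adjusted p = 0.0212). Both were called in 10 of 13 alternatives, and both lost the call without WT 1 or WT 2, Chac1 also without CKO 1 and Nupr1 without WT 3. Slc7a3, a carrier of cationic amino acids, stood at 106, 115 and 121 CPM in the WT libraries, against 43.3, 74.3 and 44.2 CPM in the CKO libraries (log2 fold change -1.11, SE 0.23, limma's adjusted p = 0.0222). Atf5, a transcription factor related to Atf4, stood at 109, 80.3 and 62.5 CPM in the WT libraries, against 35.8, 41.1 and 44.2 CPM in the CKO libraries (log2 fold change -1.01, SE 0.23, limma's adjusted p = 0.0336). These last 2 were called in 8 of 13 alternatives and lost the call without WT 1, WT 2, CKO 1 or CKO 3, Slc7a3 also without WT 3.

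Gdf15, a secreted stress cytokine, moved the other way, from 37.7, 20.3 and 38.02 CPM in the WT libraries to 64.7, 58.5 and 78.9 CPM in the CKO libraries (log2 fold change 1.09, SE 0.27, limma's adjusted p = 0.0425). Its call was lost without WT 1, WT 2, CKO 1 or CKO 3, and also with a pseudocount of 0.1 (limma's adjusted p = 0.054). The 12 tRNA synthetases on the list, a group picked after their values were seen, had negative log2 fold changes in 9 of 12 genes, from -1.10 to 0.28 with a median of -0.19, and Eprs was the 1 among them that was called.

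**Figure D3:**
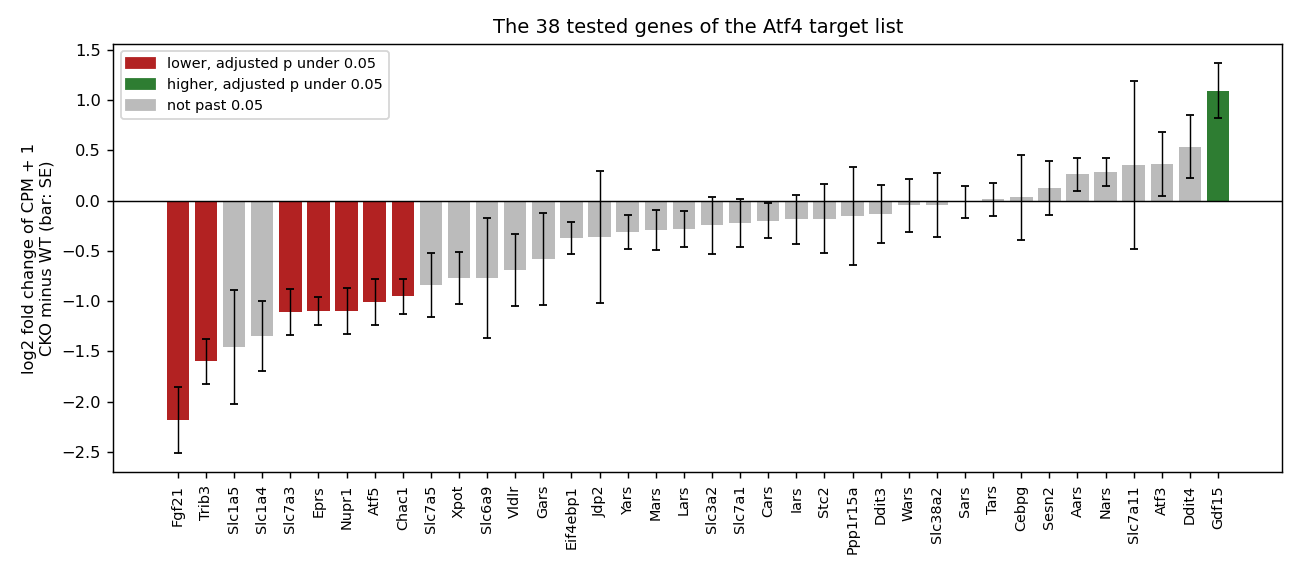
Log2 fold change of CPM + 1 (CKO minus WT, vertical axis) of the 38 tested genes of the Atf4 target list, ordered by value, with bars for the SE and colours for genes called lower (red), called higher (green) and not called (grey). The 7 red bars lie between -2.18 and -0.95 and the green bar of Gdf15 is at 1.09, and 29 of the 38 bars point down.

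The CARE core TGATGNAA was searched on both strands in windows of 250 bases before to 50 bases after each RefSeq start. It was found in 2 of the 9 genes (22.2%), Pycr1 and Asns, and in 14 of the 31 genes of the Atf4 target list with a window (45.2%), where 4.51% of 27025 genes and 3.97% of 32851 windows held it. That list holds textbook targets of Atf4, which binds this element, so its higher share is not a result of these data. Within the list the core was found in 4 of the 6 genes called lower that had a window. It was also found in 10 of the 23 not called (43.5%) and in 0 of the 1 called higher. The sites of these 4 genes and of Pycr1 and Asns are shown with 10 bases on either side, so that the shared core (capitals) can be compared with its neighbours. Each is read 5′ to 3′ on the strand that spells the core, from GRCm38.p6 of RefSeq.
Pycr1, chr11:120643834-120643861, minus strand, 103 bases before the start: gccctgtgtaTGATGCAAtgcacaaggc
Asns, chr6:7693215-7693242, minus strand, 23 bases before the start: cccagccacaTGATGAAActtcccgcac
Trib3, chr2:152344029-152344056, plus strand, 14 bases after the start: cccgcccggcTGATGTAAacctgagcta
Chac1, chr2:119351039-119351066, minus strand, 193 bases before the start: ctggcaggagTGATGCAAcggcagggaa
Nupr1, chr7:126625563-126625590, plus strand, 110 bases before the start: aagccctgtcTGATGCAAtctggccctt
Fgf21, chr7:45615612-45615639, plus strand, 139 bases before the start: cctggacggaTGATGCAAtgggggggtc

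TGATGCAA was spelled by Pycr1, Chac1, Nupr1 and Fgf21 and TGATGTAA by Trib3, all called lower, and TGATGAAA by Asns, which was not called. TGATGCAA was also spelled by 9 of the 10 genes of the Atf4 target list that held the core and were not called. The letters alone did not separate the genes, since Aldh18a1 and Mthfd2 were called lower without a match in this window. A match is a description of the letters, and binding of Atf4 was not measured.

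The list of eIF2 kinases, subunits, exchange factor and phosphatase subunits, which set the translation of Atf4, held 14 tested genes. Eif2s1, the alpha subunit that the kinases phosphorylate, was called higher, from 232, 224 and 238 CPM in the WT libraries to 369, 375 and 346 CPM in the CKO libraries (log2 fold change 0.65, SE 0.14, limma's adjusted p = 0.025). The groups did not overlap, and the call was lost without WT 1, WT 2, CKO 1 or CKO 3. The other 13 genes were not called, and the median log2 fold change of the list was 0.14. Of all genes tested, 3.18% were called higher and 2.6% lower. Without WT 3 and CKO 2, 3 of the 14 were called higher and 0 lower, where 11% of all genes tested were called higher and 9.22% lower.

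Per kb of exon, the order of the 9 genes changed between the groups. The length takes in all annotated exons of a gene, used or not, so an order between genes depends on it. In plain CPM, Mthfd2 (444 CPM) lay above Asns (405 CPM) in WT. In WT it ran from Atf4 (265 CPM per kb) over Asns (148), Mthfd2 (127), Phgdh (127), Shmt2 (84.3), Pycr1 (66.5), Psat1 (42.9) and Aldh18a1 (33.4) to Psph (31.5). The libraries of Mthfd2 and Phgdh overlapped, as did those of Shmt2 and Pycr1, of Psat1 and Aldh18a1, and of Aldh18a1 and Psph, so these neighbours have no firm order. In CKO it ran from Atf4 (236 CPM per kb) over Asns (126), Phgdh (95.2), Shmt2 (73.6), Mthfd2 (72.2), Psat1 (55.5), Psph (27.3) and Aldh18a1 (18.7) to Pycr1 (10.02). Here the neighbours from Phgdh to Psat1 overlapped, and Psph, Aldh18a1 and Pycr1 each lay below the gene before with no overlap. Pycr1 moved from rank 6 to rank 9.

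The 9 genes did not vary as 1 block over the 6 libraries. The level of Pycr1 on the log2(CPM + 1) scale ran with those of Mthfd2 (Pearson's r = 0.98), Phgdh (0.96) and Aldh18a1 (0.93), whereas Psat1 ran against Psph (-0.91) and Atf4 ran with Shmt2 (0.88). These values describe 6 libraries in 2 groups, so a difference between the groups alone gives a high r, and CKO 2 shapes the pair of Atf4 and Shmt2. Among the 5021 genes averaging 20 CPM or more, those most like Pycr1 were Mia (r = 0.997), Frzb (0.995), Eprs (0.994), a gene listed only as ONT.1776 (0.992) and Comp (0.992). Mia, a protein secreted by chondrocytes, stood at 1062 to 1474 CPM in WT and at 258 to 271 CPM in CKO, and Comp, a cartilage matrix protein, at 1253 to 1809 CPM in WT and at 165 to 193 CPM in CKO. Those most like Phgdh were Gnptg (r = 0.998), Sumf2 (0.995) and Fgf21 (0.991), and those most like Atf4 were Uchl5 (0.995), Ptpa (0.993) and Nucb2 (0.973).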

How the data were processed

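The authors made stranded mRNA libraries from TRIzol RNA. The submitters' processing notes name cutadapt (version 2.5), HISAT2 and featureCounts (version 1.6.3), and the genome build and annotation are not given in the sources used here. The deposited values are CPM per gene and library. Every value (100%, tolerance 0.01 reads) was a whole multiple of 1 read, so read counts were recovered from the CPM deposited by the authors. Depth was low, at 1153871 to 1454094 reads, and reads without molecular identifiers cover counting error only.

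The 9 genes and the gene lists were chosen with earlier results of these data known. Libraries were grouped by genotype label. With limma (version 3.58.1, R 4.3.3), log2(CPM + 1) was fitted on genotype for the 12155 genes averaging 1 CPM or more, the variances were moderated along a trend, and p-values were adjusted by Benjamini-Hochberg. Low genes have understated fold changes on this scale. The scripts were tested on simulated data. The alternatives were a pseudocount of 0.1, no filter, a replicate block, each library left out, edgeR's quasi-likelihood test (version 4.0.16) and DESeq2 (version 1.42.0) on the recovered reads, TMM scaling and, added after the data were seen, WT 3 and CKO 2 left out together.

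The genes named were the 9, Hnrnpk, the paralogs, up to 8 called genes of each list, and the genes most correlated with Pycr1, Phgdh and Atf4, and others are said to be chosen after their values were seen. The values of 1 gene named by this rule are not given. Positions are those of GENCODE M21 on GRCm38, which held 15212 of the 15217 Ensembl identifiers. CPM per kb used the joint length of all its exons of a gene, not that of the transcripts expressed. Promoter windows came from RefSeq on GRCm38.p6. Near-identical copies were counted with BLAST (version 2.17.0).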

Additional observations from a re-analysis of the deposited data

How the results depend on the processing

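No gene named for its call changed sign under any of the 13 alternatives, and Pycr1, Cth, Eprs, Trib3 and Fgf21 were called in each. For Pycr1, whose fall chose the set, this is no test. Leaving out 1 library gave 123 to 692 genes higher and 79 to 606 lower (387 and 316 in all 6), 1 to 3 of the 9 genes lower, 0 to 3 called genes of the proline and glutamate list, 1 to 3 of the serine and one-carbon list, 0 to 2 of the asparagine and aspartate list, 3 to 13 of the Atf4 target list and 0 to 1 of the eIF2 list. Both ends of the Atf4 range come from named libraries, 13 without CKO 2 and 3 without WT 1 or WT 2, and fewer samples were fitted. With a replicate block, 225 genes were higher and 160 lower, and 0, 1 and 0 genes of the proline, asparagine and eIF2 lists were called. The numbers are not said to pair the samples, and the same-numbered libraries deviated with r = 0.06, -0.23 and -0.16 over 5022 genes, so the block is given here only. edgeR's test called 2 genes of the serine and one-carbon list. Without WT 3 and CKO 2 together, 1312 genes were higher and 1098 lower, 6 of the 9 genes were lower and 1 higher, and 4, 8, 21 and 3 genes of the proline, serine, Atf4 target and eIF2 lists were called. The log2 fold change of Mthfd2 was then -0.73. Of 299 such values of 23 named genes, 254 kept their call or, for the 9 genes, stayed within the spread of the replicates, and 44 calls of list genes were lost in the same direction. The cause of these shifts was not tested. TMM scaling moved the median log2 fold change of all genes from 0.01 to -0.03. Depth limits the genes near 3 reads, such as Mthfd2l and Ass1 in WT.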
